A study of Mus musculus with 8 samples.

Results

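The genes described here encode 7 surface molecules through which macrophages and T cells signal to each other: CD40, the B7-family ligands CD80, CD86 and ICOSL, the SLAM receptor SLAMF6, and the checkpoint ligands PD-L1 (gene Cd274) and PD-L2 (gene Pdcd1lg2). They were picked by symbol from a count table of 34745 Ensembl genes, and each symbol matched 1 gene. All 7 were among the 14040 genes that passed edgeR's filter on low counts and were tested. Pdcd1lg2 passed only through 2 libraries, with 11 counts in one KAT8-deficient untreated library and 10 in one WT untreated library.

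The libraries are messenger RNA from mouse bone-marrow-derived macrophages, which are primary macrophages grown from marrow in M-CSF, here at 20 ng/ml. KAT8-deficient cells (titled KAT8-cKO) given R848 for 6 h (100 ng/ml), untreated KAT8-deficient cells, WT cells given R848 in the same way and untreated WT cells were sequenced in 2 libraries each. KAT8 (MOF) acetylates histone H4, and R848 (resiquimod) is a small agonist of the RNA sensor TLR7. The sources used here do not give the driver of the deletion, the deleted part of the gene, or the strain, sex and age of the mice. They also do not tell whether replicates are different mice or cultures, and p-values therefore measure only the spread between these libraries.

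A T cell that meets its antigen also reads a second set of signals from the presenting cell. CD80 and CD86 bind the activating receptor CD28 and the inhibitory receptor CTLA-4, ICOSL binds ICOS, and CD40 receives CD40 ligand from the T cell and passes the signal into the macrophage through TRAF adaptors and NF-kB. PD-L1 and PD-L2 bind PD-1 and restrain the T cell. SLAMF6 binds itself on neighbouring cells and signals through SAP-type adaptors. In macrophages and dendritic cells, Toll-like receptor agonists are known inducers of several of these molecules.

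Total counts ran from 18550977 to 21384532 per library, so that 3 counts, the detection floor used here, stand for 0.14 to 0.163 CPM, the count of a gene scaled to a common library size. Kat8 was at 9.94 and 10.4 CPM in KAT8-deficient R848 libraries, 8.76 and 10.8 in KAT8-deficient untreated, 18.03 and 15.98 in WT R848 and 16.96 and 17.9 in WT untreated libraries, so all KAT8-deficient libraries were below all WT libraries (log2 difference -0.74 under R848, edgeR adjusted p = 0.00553, and -0.83 untreated, edgeR adjusted p = 0.0113). Macrophage markers were detected in all libraries. Their sum without Lyz2, a form chosen after the values were seen, was 3631 to 4009 CPM in KAT8-deficient R848, 3717 to 3962 in KAT8-deficient untreated, 4181 to 4531 in WT R848 and 4016 to 4174 CPM in WT untreated libraries. The dendritic cell markers Flt3 and Siglech and the neutrophil marker Ly6g had 0 counts in all 8 libraries, and the T cell marker Cd3e had 0 or 1. Other genes of the same lists were present: Itgax, an integrin that macrophages also carry, at 477 to 608 CPM, the dendritic cell markers Zbtb46 at 7.33 to 9.34 and Batf3 at 1.37 to 2.61, the neutrophil marker S100a8 at 4.06 to 6.83 and Cd4 at 0.306 to 0.978 CPM over the 8 libraries.

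R848 raised 5 of the 7 genes in WT cells. Cd40, Icosl, Slamf6, Cd80 and Cd274 passed the test (edgeR's quasi-likelihood test, adjusted over all genes tested, threshold 0.05) and 0 members were called lower, where 6.94% of all genes tested were called higher and 6.7% lower. The median log2 fold change was 0.62 over the members and -0.0024 over all genes tested. In KAT8-deficient cells, 0 of the 7 passed, beside 0.499% of genes called higher, 0.135% lower and 0.634% in either direction, and the median was 0.23 over the members and 0.0020 over all genes tested. Of these 7, 2 had an unadjusted p under 0.05 (Cd40 and Slamf6), and limma-voom also called 0. DESeq2 called 0 as well but gave no adjusted p for 3 of the 7, Slamf6 among them.

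Under R848, 4 of the 7 genes were lower in KAT8-deficient than in WT cells: Icosl, Cd40, Slamf6 and Cd274. Of all genes tested, 5.47% were called lower and 8.14% higher. The median log2 difference was -0.72 over the members and -0.0075 over all genes tested. Fewer macrophages in a culture and less RNA of a gene per macrophage cannot be told apart in such bulk libraries. In untreated cells 0 of the 7 passed the test between genotypes, beside 2.91% of genes called higher, 1.36% lower and 4.27% in either direction. However, 3 had an unadjusted edgeR p under 0.05, in both directions. Cd40 was higher in KAT8-deficient cells (log2 difference 0.70), and Slamf6 and Cd274 were lower (-0.92 and -0.22). The share of all genes tested with an unadjusted p under 0.05 was not computed, for this or other such counts. DESeq2 and limma-voom called 0 of the 7 as well, with no adjusted p in DESeq2 for 1 of them. The difference between the 2 R848 responses, tested as an interaction, passed for Cd40 alone of the 7, beside 0.171% of genes called lower and 0.057% called higher. Many genes had groups that did not overlap without being called. With R848 in KAT8-deficient cells 3 of the 7 lay wholly above and 0 wholly below the untreated libraries (23.8% and 23% of all genes tested), and in WT cells 6 lay above and 0 below (27.7% and 28.3%). Between genotypes, 2 of the 7 lay wholly above and 2 wholly below WT in untreated cells (24.9% and 25.5%), and 0 lay above and 6 below under R848 (29.2% and 30.3%). These comparisons share libraries: the WT R848 libraries stand in the WT response, in the genotype difference under R848 and in the interaction, so their results are not independent of each other.

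**Figure D1:**
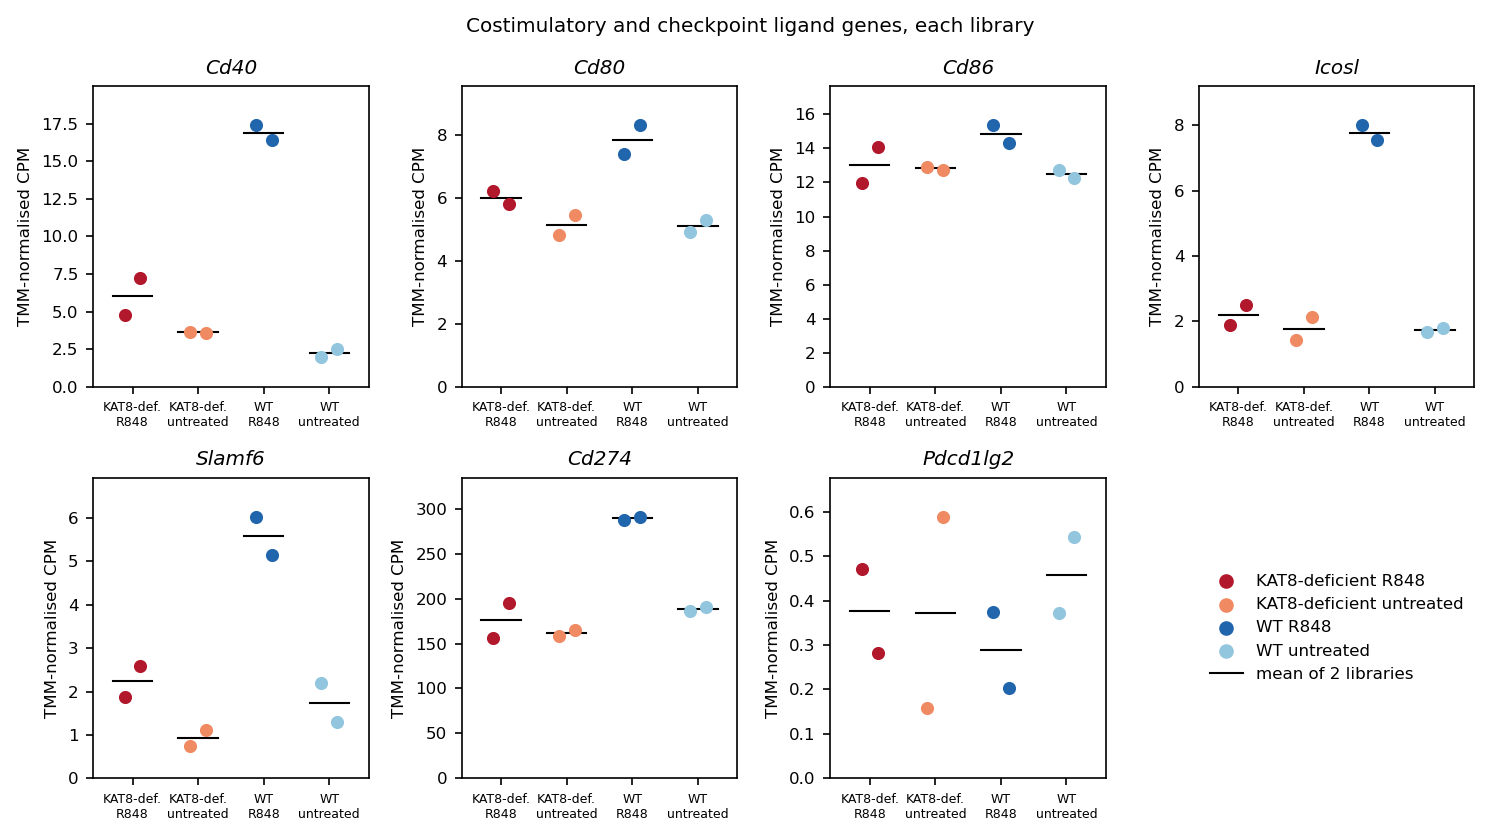
Level of each of the 7 genes in every library, in CPM normalised by TMM library sizes, with KAT8-deficient R848, KAT8-deficient untreated, WT R848 and WT untreated libraries from left to right. Black lines are means, and 6 of the 7 genes, all but Pdcd1lg2, are highest in the 2 WT R848 libraries.

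**Figure D2:**
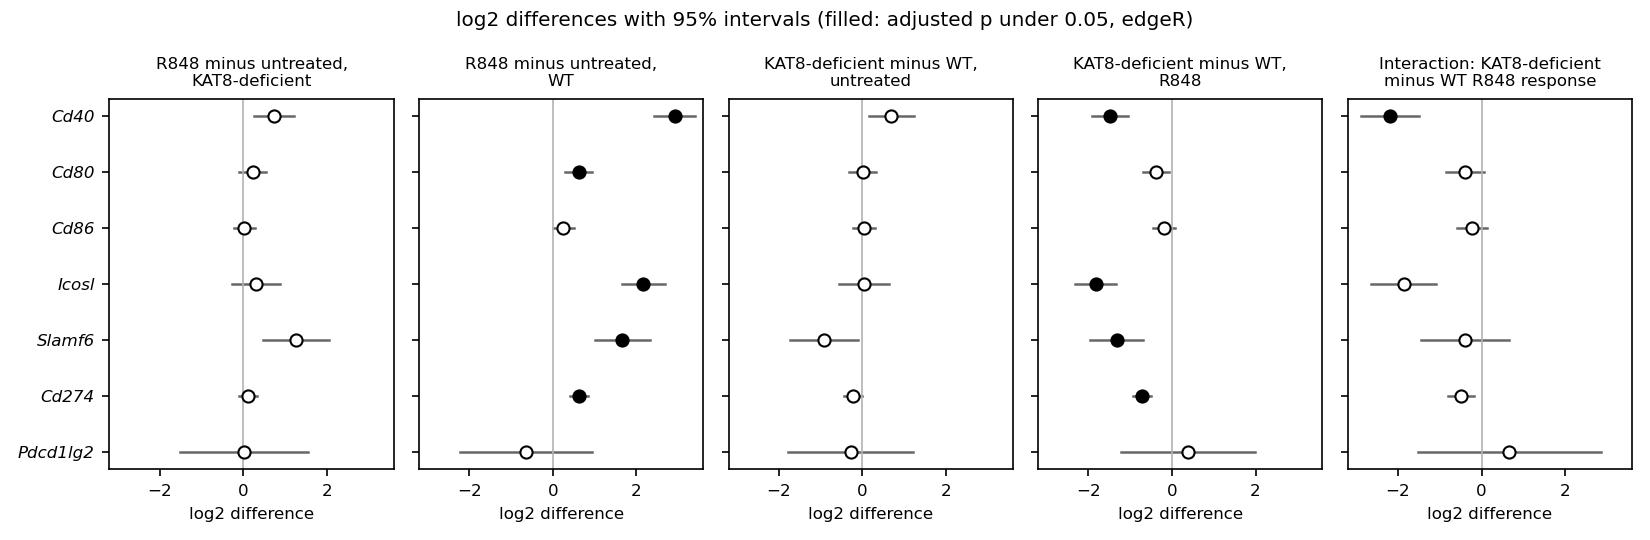
Log2 fold change of each gene with its 95% interval (unadjusted) in the 2 R848 responses, the 2 genotype differences and the interaction, with filled points for edgeR adjusted p under 0.05. Under R848 the genotype differences of Icosl, Cd40, Slamf6 and Cd274 lie below 0 at -1.82, -1.49, -1.32 and -0.72.

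CD40 is the receptor for CD40 ligand. Cd40 (chromosome 2, 165055627 to 165072948 on the plus strand, GRCm38) was at 4.76 and 7.26 CPM in KAT8-deficient R848 libraries, 3.67 and 3.58 in KAT8-deficient untreated, 17.4 and 16.4 in WT R848 and 2.00 and 2.50 CPM in WT untreated libraries. The WT R848 libraries were above every other library, and the 2 untreated groups did not overlap either. R848 raised Cd40 7.52-fold in WT cells (log2 2.91, SE 0.21, edgeR adjusted p = 0.000119). The response in KAT8-deficient cells was 0.73 on the log2 scale (SE 0.21, edgeR adjusted p = 0.191), with the R848 libraries above the untreated ones. On the CPM scale, the mean difference between treated and untreated was 2.38 CPM in KAT8-deficient cells, against 14.6 CPM in WT cells. Leaving out 1 library of the genotype gave 1.13 CPM (without KAT8-deficient R848 replicate 2) to 3.63 CPM (without KAT8-deficient R848 replicate 1) in KAT8-deficient cells, against 14.1 to 15.1 CPM in WT cells.

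Under R848, Cd40 was lower in KAT8-deficient than in WT cells (log2 difference -1.49, SE 0.19, edgeR adjusted p = 0.00145). In untreated cells it was 3.63 ± 0.0634 CPM in KAT8-deficient cells, against 2.25 ± 0.350 CPM in WT cells (SD, n = 2 libraries each), with the groups apart but with a log2 difference of 0.70 that missed the threshold (edgeR adjusted p = 0.151). The interaction was -2.18 (SE 0.30, 95% interval -2.87 to -1.49, edgeR adjusted p = 0.0362). Its value was negative, between -2.52 and -1.91, without each library in turn, and passed the threshold only without either KAT8-deficient R848 library, with an adjusted p up to 0.14 otherwise. Limma-voom gave an adjusted p of 0.0588. DESeq2 gave an interaction of -2.19 (DESeq2 unadjusted p = 6.2e-08) but no adjusted p for this gene, so its call is missing and not a failed test. Without KAT8-deficient R848 replicate 1, the response in KAT8-deficient cells passed as well (log2 1.00, edgeR adjusted p = 0.0415).

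The 2 KAT8-deficient R848 libraries differed between themselves, and this touches several of the values above. Replicate 2 was higher than replicate 1 for 5 of the 7 genes (the exceptions are Cd80 and Pdcd1lg2) and for 12 of the 13 CD40 signalling genes below, with a median log2 difference of 0.34 over those 13. Replicate 2 was the higher for 8 of the 13 in KAT8-deficient untreated, 6 in WT R848 and 7 in WT untreated libraries. Of the 7 genes it was the higher for 5, 2 and 5 in these groups, so the count of 5 is not particular to KAT8-deficient R848 libraries. What this difference contributed to the results was not tested.

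CD80 and CD86 are the ligands of CD28 and CTLA-4. Cd80 (chromosome 16, 38455561 to 38496335, plus strand) was at 6.22 and 5.80 CPM in KAT8-deficient R848 libraries, 4.83 and 5.46 in KAT8-deficient untreated, 7.41 and 8.32 in WT R848 and 4.94 and 5.32 CPM in WT untreated libraries. The WT R848 libraries were above all others, and the KAT8-deficient R848 libraries were above the 4 untreated ones. Cd80 rose 1.54-fold in WT cells (log2 0.62, SE 0.14, edgeR adjusted p = 0.0207), a call lost without each of the 4 WT libraries in turn and in DESeq2 (adjusted p = 0.125). In KAT8-deficient cells its response was 0.23 (95% interval -0.10 to 0.55), and under R848 the genotype difference was -0.39 (95% interval -0.70 to -0.08, edgeR adjusted p = 0.101).

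Cd86 (chromosome 16, 36603869 to 36666081, minus strand) varied little. It was at 11.97 and 14.1 CPM in KAT8-deficient R848 libraries, 12.9 and 12.7 in KAT8-deficient untreated, 15.4 and 14.3 in WT R848 and 12.7 and 12.3 CPM in WT untreated libraries. All 8 libraries lay between 11.97 and 15.4 CPM. It passed no test: the WT response was 0.25 (95% interval -0.01 to 0.50, edgeR adjusted p = 0.193) and the KAT8-deficient response was 0.02 (95% interval -0.23 to 0.28, edgeR adjusted p = 0.947). Under R848 the genotype difference was -0.19 (95% interval -0.44 to 0.07, edgeR adjusted p = 0.315).

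ICOSL is the ligand of the T cell receptor ICOS. Icosl (chromosome 10, 78069302 to 78083913, plus strand) was at 1.88 and 2.50 CPM in KAT8-deficient R848 libraries, 1.42 and 2.14 in KAT8-deficient untreated, 8.001 and 7.56 in WT R848 and 1.68 and 1.79 CPM in WT untreated libraries. The WT R848 libraries were far above the other 6, which lay between 1.42 and 2.50 CPM. R848 raised Icosl 4.48-fold in WT cells (log2 2.16, SE 0.23, edgeR adjusted p = 0.000468). In KAT8-deficient cells the response was 0.30 (95% interval -0.27 to 0.88, edgeR adjusted p = 0.635). The mean difference between treated and untreated was 0.414 CPM in KAT8-deficient cells (0.0525 CPM without KAT8-deficient untreated replicate 1 and 0.775 CPM without KAT8-deficient untreated replicate 2), against 6.04 CPM in WT cells (5.82 to 6.27 CPM without 1 library). Under R848, KAT8-deficient cells were lower (log2 difference -1.82, SE 0.22, edgeR adjusted p = 0.00117). The interaction of -1.86 missed the threshold (SE 0.34, edgeR adjusted p = 0.0678). It was called without KAT8-deficient R848 replicate 2 (edgeR adjusted p = 0.0442), with no filter on low counts (edgeR adjusted p = 0.0115) and with robust estimation of the spread (edgeR adjusted p = 0.0383).

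The promoter of Icosl is shown because Icosl had the largest genotype difference under R848 of the 7 genes and because the window holds an NF-kB consensus, the motif of the transcription factors that CD40 and Toll-like receptors feed into. It is the plus-strand window chr10:78069118-78069417 of RefSeq (GRCm38.p6), 250 bases before to 50 bases after RefSeq's start of the gene, with the NF-kB consensus in capitals. The motif lies on the minus strand 111 bases before the start.

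Icosl: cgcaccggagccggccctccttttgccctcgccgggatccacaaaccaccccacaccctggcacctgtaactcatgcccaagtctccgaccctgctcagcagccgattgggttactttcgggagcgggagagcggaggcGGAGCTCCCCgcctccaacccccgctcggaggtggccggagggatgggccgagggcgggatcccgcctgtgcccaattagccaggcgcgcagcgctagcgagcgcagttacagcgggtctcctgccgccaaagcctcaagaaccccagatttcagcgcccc

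An NF-kB consensus was found in 8.46% of 32851 RefSeq promoter windows of the same length, so its presence in this window is a description and not a site.

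SLAMF6 is a receptor of the SLAM family, whose members bind themselves or each other between immune cells. Slamf6 (chromosome 1, 171917515 to 171953170, plus strand) was at 1.88 and 2.59 CPM in KAT8-deficient R848 libraries, 0.735 and 1.12 in KAT8-deficient untreated, 6.03 and 5.16 in WT R848 and 2.19 and 1.303 CPM in WT untreated libraries. The R848 libraries were above the untreated ones within each genotype. Slamf6 rose 3.16-fold in WT cells (log2 1.66, SE 0.29, edgeR adjusted p = 0.00628). Its response in KAT8-deficient cells was 1.27 (SE 0.34) and did not pass (edgeR adjusted p = 0.168). Under R848 it was lower in KAT8-deficient cells (log2 difference -1.32, SE 0.28, edgeR adjusted p = 0.0152). This call was lost without KAT8-deficient R848 replicate 1, WT R848 replicate 1 or WT R848 replicate 2, with adjusted p up to 0.10 and values from -1.56 to -1.11. In untreated cells the genotype difference was -0.92 (95% interval -1.74 to -0.11, edgeR adjusted p = 0.193). The interaction was -0.39, with a 95% interval of -1.45 to 0.66 (edgeR adjusted p = 0.81).

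PD-L1, the first of the checkpoint ligands, had the highest level per kilobase of the 7 in every group, as given below. Cd274 (chromosome 19, 29367455 to 29388095, plus strand) was at 157 and 195 CPM in KAT8-deficient R848 libraries, 159 and 165 in KAT8-deficient untreated, 287 and 291 in WT R848 and 186 and 191 CPM in WT untreated libraries. The WT R848 libraries were above all others, and the KAT8-deficient R848 libraries overlapped both untreated groups. Cd274 rose 1.53-fold in WT cells (log2 0.62, SE 0.095, edgeR adjusted p = 0.00346). In KAT8-deficient cells the response was 0.12 (95% interval -0.10 to 0.34, edgeR adjusted p = 0.616). The mean difference between treated and untreated was 14.1 CPM in KAT8-deficient cells, against 100.4 CPM in WT cells. In KAT8-deficient cells it was -5.34 CPM without KAT8-deficient R848 replicate 2 and 33.4 CPM without KAT8-deficient R848 replicate 1, against 97.98 to 102.9 CPM in WT cells without 1 library. Under R848, KAT8-deficient cells were lower (log2 difference -0.72, SE 0.095, edgeR adjusted p = 0.00188). The interaction was -0.50 (95% interval -0.80 to -0.19, edgeR adjusted p = 0.18), and DESeq2 called it (adjusted p = 0.0326). It was also called without KAT8-deficient R848 replicate 2 (edgeR adjusted p = 0.0174). An antisense gene, AC119228.1, shares 511 exon bases with Cd274, was not analysed here, and with no strand setting given its reads cannot be told apart from those of Cd274.

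PD-L2 was near the detection floor. Pdcd1lg2 (chromosome 19, 29410919 to 29471161, plus strand, 22.8 kb after the end of Cd274) had 10 and 6 counts in KAT8-deficient R848 libraries, 3 and 11 in KAT8-deficient untreated, 7 and 4 in WT R848 and 8 and 10 counts in WT untreated libraries. In CPM every group overlapped every other, although the counts of the WT R848 libraries were below those of the WT untreated ones. Its fitted differences were small beside their intervals, with the WT response at -0.65 (95% interval -2.22 to 0.93), and a change of its level was not detectable at this depth. The promoters of the 2 ligands, which lie beside each other on chromosome 19, are shown for comparison. They are RefSeq windows (GRCm38.p6, plus strand) at chr19:29367188-29367487 for Cd274 and chr19:29410669-29410968 for Pdcd1lg2. The capitals in the Pdcd1lg2 window mark an NF-kB consensus read on both strands, and the Cd274 window held none of the 4 motifs searched.

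Cd274: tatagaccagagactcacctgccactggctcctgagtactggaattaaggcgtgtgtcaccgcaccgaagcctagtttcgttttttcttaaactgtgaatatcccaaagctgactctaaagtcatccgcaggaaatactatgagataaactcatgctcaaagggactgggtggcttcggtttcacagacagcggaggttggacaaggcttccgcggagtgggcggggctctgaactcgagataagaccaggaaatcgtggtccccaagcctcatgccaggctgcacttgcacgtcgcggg

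Pdcd1lg2: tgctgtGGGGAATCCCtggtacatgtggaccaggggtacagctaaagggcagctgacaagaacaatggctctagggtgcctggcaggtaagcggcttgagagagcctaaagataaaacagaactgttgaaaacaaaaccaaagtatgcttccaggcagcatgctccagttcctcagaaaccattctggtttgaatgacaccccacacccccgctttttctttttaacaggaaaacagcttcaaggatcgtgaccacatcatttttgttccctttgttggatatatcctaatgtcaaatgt

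The search covered the NF-kB consensus, the STAT motif GAS (TTCNNNGAA), the interferon motif ISRE and the AP-1 motif (TGANTCA) on both strands, found in 8.46%, 8.3%, 3.44% and 7.81% of all windows. Windows were given for 5 of the 7 genes. The Cd80 window held an AP-1 motif at -42 from the start, and the Slamf6 window held none of the motifs searched. No match says only that these letters are not in this window. The Cd274 and Icosl windows had 15 and 26 CpG dinucleotides, and those of Pdcd1lg2, Cd80 and Slamf6 had 3, 3 and 1, beside a median of 7 over all windows.

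Levels were ordered across genes on a per-length scale, CPM per kilobase of exon, with the exon length taken over all annotated transcripts of a gene (10832 bases for Slamf6 and 1961 to 4620 for the others). In WT R848 cells the order was Cd274 at 79.8, Cd40 at 4.96, Cd86 at 4.06, Cd80 at 2.12, Icosl at 1.68, Slamf6 at 0.516 and Pdcd1lg2 at 0.147 CPM per kb, and no neighbouring pair overlapped between libraries. Cd40 stood above Cd86 in that group only, and below both Cd86 and Cd80 in the 2 untreated groups. In KAT8-deficient R848 cells Cd40 at 1.76 and Cd80 at 1.62 CPM per kb overlapped, as did Slamf6 at 0.207 and Pdcd1lg2 at 0.192. In KAT8-deficient untreated and in WT untreated cells the overlapping neighbours were Pdcd1lg2 and Slamf6. The per-length level of Cd274 relative to Cd40 was 30.9 and 25.3 in KAT8-deficient R848, 40.6 and 43.3 in KAT8-deficient untreated, 15.5 and 16.7 in WT R848 and 87.4 and 72.0 in WT untreated libraries. It was lowest in WT R848 libraries.

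**Figure D3:**
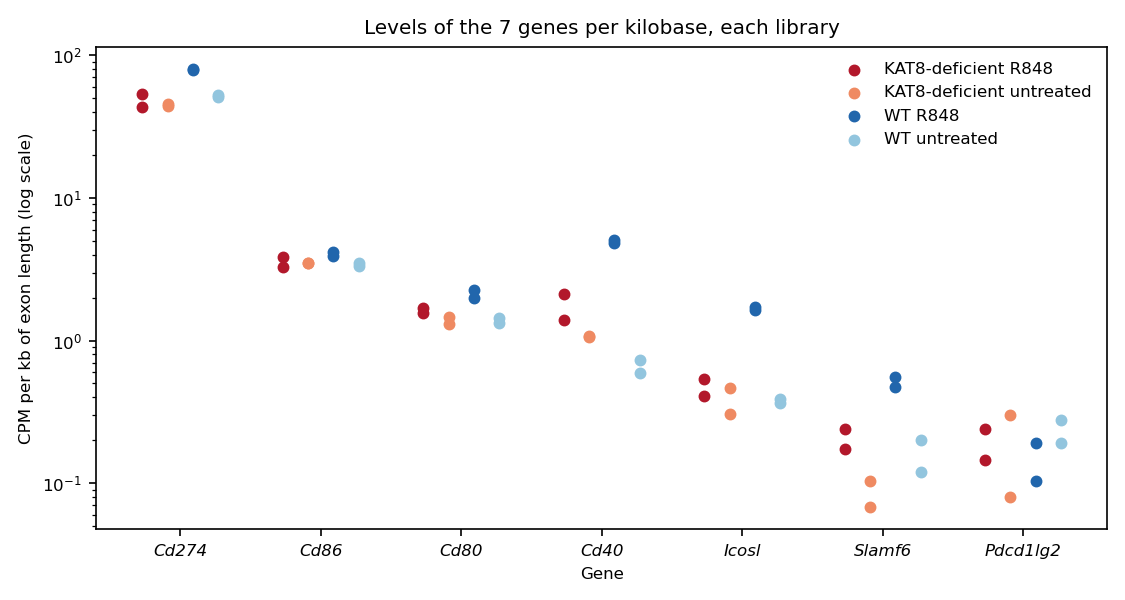
Level of each gene per kilobase of exon on a log axis, in CPM per kb, with 1 point per library coloured by group. Cd274 lies highest in every group, with a mean of 79.8 CPM per kb in WT R848 cells, and Pdcd1lg2 or Slamf6 lies lowest.

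Genes of CD40 signalling, the TRAF adaptors and NF-kB subunits that act below the receptor, were read beside the members. Toll-like receptors, which R848 triggers, feed into the same NF-kB factors, so this list is not particular to CD40. Of 13 listed, all were tested, and R848 raised 10 in WT cells with 0 lowered, at a median log2 fold change of 0.72. In KAT8-deficient cells 0 of 13 passed in edgeR (median 0.35), while 6 had an unadjusted p under 0.05, DESeq2 called 4 and limma-voom called 0. The interaction passed for 0 of the 13 in edgeR, beside 0.228% of all genes tested. For it, 8 of the 13 had an unadjusted edgeR p under 0.05, DESeq2 called 2 and limma-voom called 0. Under R848, 9 of 13 were lower and 0 higher in KAT8-deficient cells, with a median log2 difference of -0.48. Leaving out 1 library left 2 to 9 genes called lower, with 2 without WT R848 replicate 1 and 4 without KAT8-deficient R848 replicate 1 or WT R848 replicate 2.

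The named genes of that list were Relb and Nfkb2, subunits of the noncanonical NF-kB pair, Nfkb1, the p105/p50 subunit, and the adaptor Traf2. They rose in WT cells by 1.21, 1.11, 1.21 and 0.72 on the log2 scale (edgeR adjusted p from 0.000264 to 0.000554). Under R848 the 4 with the smallest adjusted p were lower in KAT8-deficient cells: Traf1 by a log2 difference of -1.46, Nfkb1 by -0.87, Birc3, an inhibitor of apoptosis bound by TRAFs, by -0.71, and Relb by -0.59 (edgeR adjusted p from 0.00155 to 0.00904). The call of Relb was lost without either WT R848 library and that of Birc3 without WT R848 replicate 1.

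**Figure D4:**
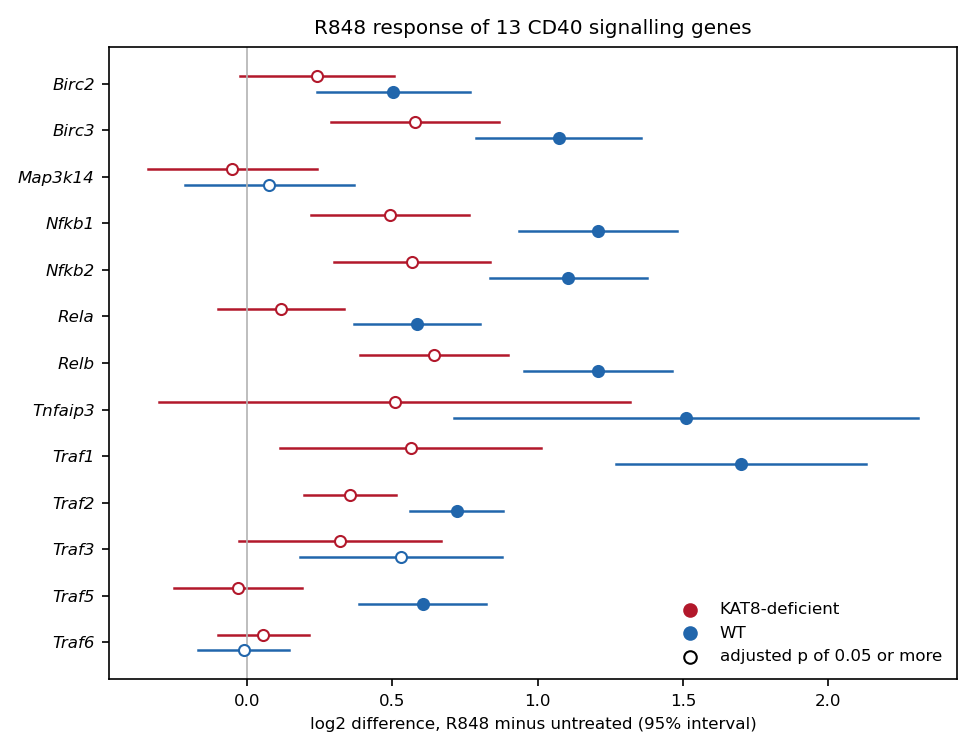
Log2 fold change of the 13 CD40 signalling genes in the R848 response of KAT8-deficient and of WT cells with 95% intervals (unadjusted), with filled points for edgeR adjusted p under 0.05. In WT cells 10 of the 13 rose and in KAT8-deficient cells 0 passed, and the interaction, not drawn here, passed for 0 of the 13.

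Of the other SLAM genes, 9 of 11 were tested, and R848 raised 3 and lowered 1 in WT cells. Slamf8, Slamf7 and Ly9 rose in WT cells (log2 0.70, 0.58 and 0.58) and were lower in KAT8-deficient cells under R848 by log2 differences of -0.59, -0.48 and -0.47 (edgeR adjusted p from 0.00079 to 0.00333). Sh2d1b1, an adaptor of SLAM receptors, fell in WT cells by 1.17 on the log2 scale, a call lost without each WT library. Slamf8 was the one gene of the list called in KAT8-deficient cells (log2 0.45, edgeR adjusted p = 0.03) and in untreated cells between genotypes (log2 difference -0.34, edgeR adjusted p = 0.0251), and each of these calls was lost without 5 of the 8 libraries in turn. Of the other TNF-superfamily genes, 7 of 14 were tested, and 2 ligands rose in WT cells and were lower in KAT8-deficient cells under R848. Tnfsf9 (4-1BB ligand) rose by 2.26 in WT cells and was lower in KAT8-deficient cells by a log2 difference of -1.45 (edgeR adjusted p = 0.0107), the second a call lost without WT R848 replicate 2. Tnfsf15 (TL1A) rose by 1.29 in WT cells and was lower in KAT8-deficient cells by a log2 difference of -1.36 (edgeR adjusted p = 0.0332). Its WT call held in 1 and its genotype call in 2 of the 8 fits that each leave out a library.

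Known regulators of PD-L1 and PD-L2 were split in direction. Of 13 tested, 2 rose and 2 fell in WT cells: the JAK kinase Jak2 by 1.08 and the transcription factor Irf1 by 1.28 rose, and Stat3 and Stat6 fell by 0.22 and 0.19. Under R848 Irf1 and Jak2 were lower in KAT8-deficient cells by log2 differences of -1.10 and -0.73 (edgeR adjusted p = 0.00141 and 0.00192), and Stat3 was higher by 0.29 (edgeR adjusted p = 0.00897). The fall of Stat6 was lost without each of the 8 libraries, that of Stat3 without 4 of them, and the genotype difference of Stat3 without KAT8-deficient R848 replicate 1 or WT R848 replicate 1. In KAT8-deficient cells 0 of the 13 passed for R848, with 3 at an unadjusted p under 0.05, and 0 in DESeq2 and limma-voom. DESeq2 gave no adjusted p for 1 of them. The interaction passed for 0 of the 13 in edgeR and limma-voom and for 2 in DESeq2.

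Markers of other cells moved with both the genotype and R848. Of the 10 stromal and endothelial markers tested, 8 were higher and 0 lower in KAT8-deficient cells under R848 (Lum by a log2 difference of 1.496, Pdgfrb by 0.71, Acta2 by 0.44 and Col1a2 by 0.41), and their sum was 3183 to 3288 CPM in KAT8-deficient R848 libraries, against 2342 to 2522 CPM in WT R848 libraries. Leaving out 1 library left 3 to 9 stromal and endothelial markers called higher, with 3 without WT R848 replicate 1 and 5 without WT R848 replicate 2. In untreated cells 6 of the 10 were higher and 0 lower in KAT8-deficient cells, with sums of 3708 to 3894 CPM in KAT8-deficient untreated libraries, against 2772 to 3316 CPM in WT untreated libraries, and 0 to 6 were called without 1 library (0 without KAT8-deficient untreated replicate 1). With R848, 2 of the 10 fell and 0 rose in KAT8-deficient cells, and 5 fell and 1 rose in WT cells (Cxcl12, Kdr and Col1a2 at log2 changes of -0.50, -0.68 and -0.30, and Pdgfra at 0.32), where 2 fell without WT R848 replicate 1, WT R848 replicate 2 or WT untreated replicate 2. The 2 that fell in KAT8-deficient cells were Tagln (log2 -0.52, from -0.62 to -0.43 without 1 library) and Acta2 (-0.44, from -0.52 to -0.37). Both calls were lost with the 4 libraries alone, and that of Acta2 also with the replicate block. Of the 8 fits that each leave out a library, the call of Acta2 held in 0 and that of Tagln in 3. Among the 9 macrophage markers under R848, 4 were called lower and 1 higher in KAT8-deficient cells. Lyz2 was lower by a log2 difference of -1.14, Adgre1 by -0.41 and Csf1r by -0.39, and Fcgr1 was higher by 1.09. Macrophage markers also responded to R848 in WT cells, where 3 rose and 2 fell. Adgre1 and Cd14 rose (log2 0.65 and 1.21), and Fcgr1 and Mertk fell (log2 changes of -1.03 and -0.66). In untreated cells Lyz2 was the 1 macrophage marker called, lower by a log2 difference of -1.04 (edgeR adjusted p = 0.000304). The macrophage sum was 8834 to 9344 CPM in KAT8-deficient R848 libraries, against 15209 to 16671 CPM in WT R848 libraries. The log2 ratio of its means between KAT8-deficient and WT cells was -0.81 with all 9 markers and -0.19 without Lyz2. Of 9 dendritic cell markers 5 were tested, and 0 were called between genotypes under R848 by edgeR, DESeq2 or limma-voom. DESeq2 gave no adjusted p for 1 of the 5, and 0 had an unadjusted edgeR p under 0.05. The sum of the 9 was 489 to 583 CPM in KAT8-deficient R848 libraries, against 580 to 620 CPM in WT R848 libraries. Of 6 B cell markers 3 were tested, and Cd22 was the only one called. Cd22 was higher in KAT8-deficient cells under R848 by a log2 difference of 0.36 (edgeR adjusted p = 0.0193). That call was lost without KAT8-deficient R848 replicate 2 or either WT R848 library. With R848 in WT cells Cd22 fell by 0.47 on the log2 scale (edgeR adjusted p = 0.00578), while the median response over the 3 tested was 0.21. The part of these markers in the results was not tested.

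For each of the 7 genes the 3 genes with the most similar levels were sought among 10180 tested genes with a mean of at least 5 CPM, by Pearson correlation of log2(CPM + 1) over the 8 libraries, which share the 4 groups. Cd40 was followed most closely by Ehd1, Tgm2 and Cd14 (r = 0.997, 0.997 and 0.996), Icosl by Rab11fip1, St18 and Ptafr (0.990, 0.988 and 0.987), Cd274 by Nod2, Rac2 and Fam98b (0.990, 0.989 and 0.989) and Slamf6 by Mtpn, Abcb1b and Tbk1 (0.995, 0.994 and 0.993). Cd80 was closest to Cdyl2, Spata13 and Slco3a1 (0.981, 0.978 and 0.972), Cd86 to Tsnax, Sugp2 and Mrpl57 (0.981, 0.966 and 0.964) and Pdcd1lg2 to Tctn1, Ptms and Dcps (0.958, 0.920 and 0.910). Among the 7, Icosl and Cd274 had r = 0.949 and Cd40 and Icosl r = 0.938, and Pdcd1lg2 was negative with all others. These are descriptions of 8 libraries, and the 3 genes named for each member are the highest of a search. Those of Pdcd1lg2 rest on 3 to 11 counts of it per library.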

How the data were processed

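The deposited table holds raw counts, whole numbers per Ensembl identifier in 1 column for each of 8 libraries, as its header shows. HISAT2, StringTie 1.3.0, edgeR and mm10 are named in the submitters' processing notes, with no role given. The sources used here do not give the annotation, counting and strand settings. Each column was matched to its sample by name.

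Genes were filtered with edgeR's filterByExpr (minimum count 10), which left 14040. After TMM scaling the 8 libraries were fitted jointly with edgeR 4.0.16 (R 4.3.3) by quasi-likelihood, 1 mean per group and 4 residual degrees of freedom. Tests were two-sided and adjusted by Benjamini-Hochberg over all genes tested, with a threshold of 0.05. SE is the absolute log2 fold change over the square root of F, and 95% intervals are unadjusted. Floors cover counting error only. The method was tested on simulated counts.

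DESeq2 1.42.0, limma-voom (limma 3.58.1), robust estimation, other filters and scaling, a replicate block, the 4 libraries of a comparison alone and leaving out each library were the alternatives. Replicates differed beyond counting error (chi-square per degree of freedom 7.83 to 12.7). Symbols, positions and exon lengths came from GENCODE M21 (GRCm38, the same build as mm10), and promoters from RefSeq. From each other list up to 4 called genes with the smallest adjusted p per comparison are named. The members and lists were chosen with earlier results of these data known.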

Additional observations from a re-analysis of the deposited data

Results flagged for a closer look

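Cd40 differed between the genotypes in its R848 response. The response in KAT8-deficient cells less that in WT cells was -2.18 on the log2 scale (SE 0.30, edgeR adjusted p = 0.0362), with a response of 0.73 in KAT8-deficient cells, against 2.91 in WT cells. It was negative without each library in turn, and the call held only without either KAT8-deficient R848 library. Groups of 2 libraries are too small to single out a library.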

How the results depend on the processing

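The calls of Cd40, Icosl and Cd274 in the WT response and in the genotype difference under R848, and of Slamf6 in the WT response, held without each library and under every alternative run. Over all settings, 506 of 537 member values kept their direction and side of the threshold, 15 lost the threshold, 6 gained it and 10 changed sign. Genes with a different response between genotypes numbered 32, against 245 with no filter on low counts, 231 in DESeq2 and 148 with robust estimation. The members among them numbered 1, against 2 with no filter, 2 with robust estimation and 0 in limma-voom. DESeq2 also called 1 member, but this was Cd274, and it gave no adjusted p for 5 of the 7, Cd40 among them. R848 called 89 genes in KAT8-deficient cells, against 274 with no filter, 238 in DESeq2, 158 with robust estimation and 22 with the 4 libraries alone. Untreated genotype differences numbered 600, against 378 with the 4 libraries alone. The causes were not tested. Leaving out 1 library gave 6 to 211 interaction genes, 797 to 1919 genotype differences under R848, 67 to 613 untreated, 2 to 186 R848 genes in KAT8-deficient cells (2 without KAT8-deficient untreated replicate 1) and 877 to 1846 in WT cells, and among the members 0 to 3, 3 to 4, 0, 0 to 1 and 4 to 5. Sign changes occurred only without 1 library, in values that passed no test: Cd274 -0.048 to 0.27, Cd86 -0.10 to 0.14 and Pdcd1lg2 -0.64 to 1.23 in the KAT8-deficient response, Cd80 -0.086 to 0.090, Icosl -0.29 to 0.30 and Pdcd1lg2 -1.49 to 0.37 untreated, and Pdcd1lg2 -0.021 to 0.87 under R848. With replicate number as a block the counts were 25, 1871, 531, 73 and 1875 genes and 1, 4, 0, 0 and 5 members, in the same order. Same-numbered libraries did not deviate together over all genes tested (correlations -0.04 to 0.05). With 2 libraries per group this cannot tell whether they share a mouse, culture or batch. Depth limits Pdcd1lg2, with 3 to 11 counts per library.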

Other observations

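The receptors that these ligands meet were largely missing from the libraries. Icos had 1 to 4 counts, Ctla4 0 to 2, and Pdcd1 and Cd40lg 0 or 1 per library. Cd28, the receptor of CD80 and CD86, was measured at 12.2 and 11.3 CPM in KAT8-deficient R848, 16.3 and 15.9 in KAT8-deficient untreated, 9.92 and 8.78 in WT R848 and 22.04 and 20.6 CPM in WT untreated libraries. The R848 libraries lay below the untreated ones within each genotype. In WT cells it fell by 1.19 on the log2 scale (SE 0.11, edgeR adjusted p = 0.000231). In KAT8-deficient cells the response was -0.45 (edgeR adjusted p = 0.11), and the interaction was 0.74 (edgeR adjusted p = 0.086).

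A list of other B7, CD28-family ligand and nectin-type genes, which also holds further surface receptors such as Havcr2, moved in both directions, with 14 of 18 tested. In WT cells R848 raised Pvr, the ligand of TIGIT, and Tnfrsf14 (HVEM) by 0.41 and 0.81 on the log2 scale, and lowered Vsir (VISTA) and Havcr2 (TIM-3) by log2 changes of -0.63 and -0.74. Under R848, Tnfrsf14 was lower in KAT8-deficient cells by a log2 difference of -1.03, and Vsir, Havcr2 and Nectin2 were higher by 0.40, 0.38 and 0.35 (edgeR adjusted p from 0.00333 to 0.0402). The WT calls of Pvr and Tnfrsf14 were lost without 2 and 3 of the WT libraries. Between genotypes under R848, the call of Vsir was lost without WT R848 replicate 1, and that of Nectin2 without each of the 4 R848 libraries. That of Havcr2 was lost without 6 of the 8 libraries, in DESeq2, with the replicate block and with the 4 libraries alone. Nectin2 was also higher in untreated KAT8-deficient cells by a log2 difference of 0.44 (edgeR adjusted p = 0.0364). This call was lost without each of the 4 untreated libraries in turn and with the 4 libraries alone.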
